A study of Mus musculus with 4 samples.

Results

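The genes described here supply the cell with folate-bound carbon units and with the precursors of DNA. They were picked by name from the folate carrier, the folate cycle and the enzymes of thymidylate and deoxynucleotide synthesis, and number 9 of the 19938 genes tested. They are Slc19a1, Mthfd1, Mthfd2, Shmt1, Shmt2, Tyms, Tk1, Rrm1 and Rrm2, and all 9 had a probe set of their own on the array. Their expression was read on 4 Affymetrix arrays of LSK cells sorted from mouse bone marrow. LSK cells lack the markers of mature blood lineages, carry Sca-1 and Kit, and include blood stem cells and early progenitors. There were 2 arrays of Hdac3 null LSK/Flt3- cells (genotype Vav-Cre/Hdac3Flox/-), and wild-type mice gave 1 array of the LSK/Flt3+ and 1 of the LSK/Flt3- fraction, called Flt3+ and Flt3- wild-type cells. All were of the C57BL/6 background, and their age was not used here. In the null mice the Cre recombinase is driven by the Vav promoter, which is active in blood cells from early in their development, so the loss of Hdac3, a histone deacetylase of corepressor complexes, is not limited to adult stem cells. Each array held RNA of cells pooled from 5 to 30 mice.

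Folate carries carbon units taken mainly from serine. SHMT enzymes load them in the cytosol and in mitochondria, and MTHFD enzymes interconvert the loaded forms. Thymidylate synthase spends such a unit to make thymidylate from deoxyuridylate, ribonucleotide reductase makes the deoxynucleotides from ribonucleotides, and thymidine kinase recovers thymidine from outside the synthesis route. Dividing progenitors in marrow depend on these steps, which is why drugs and deficiencies that block folate use first show in the blood.

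Values are RMA levels on the log2 scale, on which a difference of 1 is a 2-fold change. Array medians over all probe sets were 5.60 on null replicate 1, 5.30 on null replicate 2, 5.36 in Flt3+ and 5.32 in Flt3- wild-type cells, and the null pair differed by a median of 0.14 over all genes. The targeted gene, Hdac3, stood at 5.71 and 5.04 on the null replicates 1 and 2, against 6.33 in Flt3+ and 6.18 in Flt3- wild-type cells, and neither difference passed the test (limma, adjusted p = 1 for each). Whether its probes lie in the deleted part is unknown, so they may check nothing. Kit, which defines the sorted fraction, was between 10.11 and 10.77 on all 4 arrays, and Ly6a (Sca-1) was not analysed here. The receptor gene Flt3 stood at 7.84 and 7.02 on the null replicates, against 10.07 in Flt3+ and 9.18 in Flt3- wild-type cells. Of 7 measured LSK markers of 9 listed, 3 lay above and 4 below each wild-type array on both null arrays. Slamf1 read 8.52 and 8.17 on the null replicates, against 5.08 in Flt3+ and 6.16 in Flt3- wild-type cells (limma against Flt3+, adjusted p = 0.00506). Mecom read 6.97 and 6.51, against 7.28 in Flt3+ and 8.06 in Flt3- wild-type cells. Nothing in the labels says that the null replicates came from separate mice, so the p-values cover no more than the spread of these arrays, possibly technical, and the small number of arrays limits the precision.

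Set against wild-type LSK/Flt3- cells, the same sorted fraction with Hdac3 intact, Mthfd2, Shmt1, Tyms and Tk1 were higher on both null arrays and Mthfd1 and Rrm1 lower on both. Slc19a1, Shmt2 and Rrm2 lay above the wild-type array on one null array and below it on the other. None of the 9 passed limma with adjustment over the whole array (adjusted p = 1 for each), where 4 of 19938 genes passed (0.0201%), and 0 of the 9 had an unadjusted p under 0.05, against 478 of all genes (2.4%, of which 1.3% lower and 1.1% higher). Over all genes, 41.3% lay above the wild-type array on both null arrays and 19.9% below it on both, or 61.2% on the same side on both, so that 4 and 2 of 9 are close to these shares of all genes. The median difference of the 9 was 0.20, beside 0.09 for all genes. For genes with a mean level of at least 6, as all 9 have, that median was 0.0046. The shares above and below were not counted for those genes alone. On neither side did a member reach a 2-fold difference on both null arrays, as 0.632% of all genes did. In RNA of pooled cells, fewer cells of a type and less RNA per cell cannot be told apart.

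**Figure D1:**
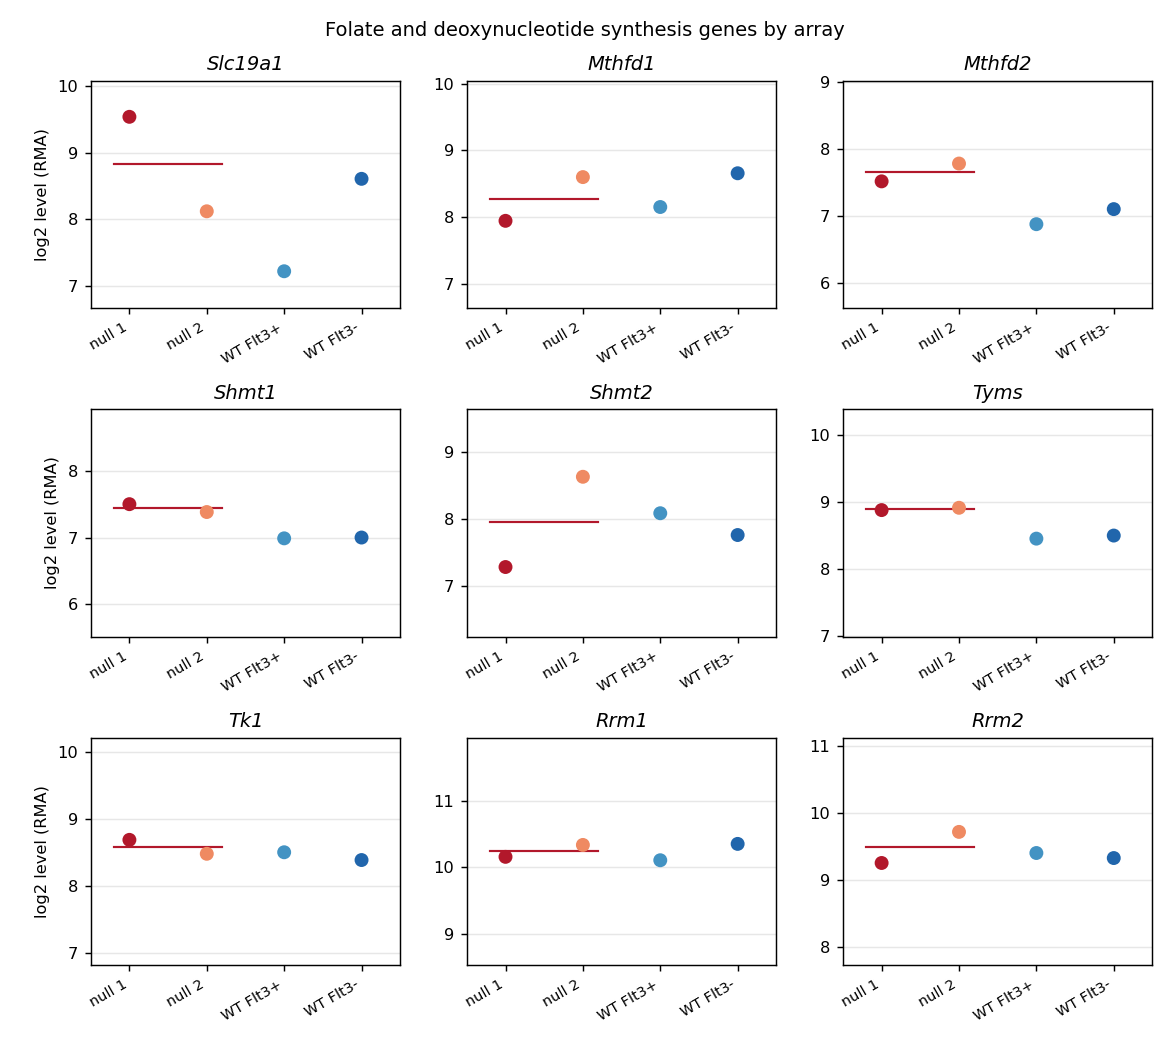
Log2 RMA level of each of the 9 genes (y axis, the same span in every panel) on the 4 arrays, which are null replicates 1 and 2, then Flt3+ and Flt3- wild type (x axis); points are single arrays and the red line is the mean of the null pair. Tyms and Shmt1 show a close null pair above both wild-type arrays, while the null pairs of Slc19a1 and Shmt2 lie more than 2-fold apart.

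Among the enzymes of the folate cycle, Mthfd2 encodes the mitochondrial dehydrogenase and cyclohydrolase that works on the folate loaded by SHMT2. Its level was 7.52 and 7.79 on the null replicates 1 and 2, against 6.88 in Flt3+ and 7.10 in Flt3- wild-type cells. Both null arrays lay above both wild-type arrays. How many of all genes lie apart in this way was not counted, here or for the genes below. The difference from wild-type LSK/Flt3- cells, 0.55 ± 0.36 (SE), had the largest size among the 9 genes as deposited, though not after centring on array medians (0.41, against -0.52 for Mthfd1), and its 95% interval ran from -0.26 to 1.36. Mthfd1, the trifunctional cytosolic enzyme, stood at 7.94 and 8.60 on the null replicates 1 and 2, against 8.15 in Flt3+ and 8.66 in Flt3- wild-type cells. Both null levels were below the LSK/Flt3- level, but replicate 2 by 0.06, and the mean difference was -0.38 ± 0.40 (SE; 95% interval -1.27 to 0.50). Whether the differences of Mthfd2 and Mthfd1 are unlike each other was not tested.

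Shmt1 and Shmt2 encode the cytosolic and the mitochondrial serine hydroxymethyltransferase. Shmt1 was at 7.50 and 7.38 on the null replicates 1 and 2, against 6.99 in Flt3+ and 7.00 in Flt3- wild-type cells. The groups did not overlap, and the difference from wild-type LSK/Flt3- cells was 0.44 ± 0.36 (SE; 95% interval -0.35 to 1.23). Shmt2 was at 7.28 and 8.63 on the null replicates 1 and 2, against 8.09 in Flt3+ and 7.76 in Flt3- wild-type cells. The null replicates thus held both the lowest and the highest level of Shmt2, 1.35 apart, and its mean difference of 0.20 ± 0.51 (SE) from wild-type LSK/Flt3- cells was made of -0.48 on replicate 1 and 0.87 on replicate 2.

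Tyms, thymidylate synthase, had the closest null pair of the 9 genes, at 8.88 and 8.92 on replicates 1 and 2, against 8.45 in Flt3+ and 8.50 in Flt3- wild-type cells. Both null arrays were above both wild-type arrays. The difference from wild-type LSK/Flt3- cells was 0.40 ± 0.35 (SE), with a 95% interval from -0.38 to 1.18. RefSeq lists a transcribed pseudogene, Tyms-ps, and whether the probes tell it from Tyms was not tested. Tk1, the thymidine kinase made mainly in S phase, stood at 8.69 and 8.48 on the null replicates 1 and 2, against 8.50 in Flt3+ and 8.39 in Flt3- wild-type cells. The null arrays lay on either side of the LSK/Flt3+ level, and the difference from LSK/Flt3- cells was 0.20 ± 0.36 (SE; 95% interval -0.60 to 0.99). A second probe set of Tk1 gave 7.40 and 7.70 on the null replicates, against 7.56 in Flt3+ and 7.33 in Flt3- wild-type cells, a mean difference of 0.22 from the LSK/Flt3- array. Both probe sets put both null arrays above the LSK/Flt3- array, though they order the null replicates in opposite ways.

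Rrm1 and Rrm2 encode the large and the small subunit of ribonucleotide reductase, of which the small one rises and falls with the cell cycle. Rrm1 was at 10.16 and 10.34 on the null replicates 1 and 2, against 10.11 in Flt3+ and 10.35 in Flt3- wild-type cells. Replicate 2 and the LSK/Flt3- array were 0.02 apart, and the difference from wild-type LSK/Flt3- cells was -0.10 ± 0.32 (SE; 95% interval -0.83 to 0.62). Rrm2 was at 9.25 and 9.72 on the null replicates 1 and 2, against 9.40 in Flt3+ and 9.33 in Flt3- wild-type cells. Both wild-type levels lay between the null levels, and the difference from wild-type LSK/Flt3- cells was 0.16 ± 0.36 (SE; 95% interval -0.65 to 0.96). For all 8 enzymes the 95% interval of the difference from wild-type LSK/Flt3- cells held 0.

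Slc19a1 encodes the reduced folate carrier, the main entry of folate into most cells. Its probe set of highest mean, 10364249, read 9.54 and 8.12 on the null replicates 1 and 2, against 7.22 in Flt3+ and 8.61 in Flt3- wild-type cells. The null replicates were 1.41 apart and enclosed the LSK/Flt3- level, at 0.93 above it and 0.49 below it. The other probe set, 10364239, read 7.20 and 7.41 on the null replicates, against 6.77 in Flt3+ and 7.31 in Flt3- wild-type cells. There the null replicates were 0.21 apart, in the opposite order. The platform annotation ties probe set 10364249 to 2 predicted RefSeq mRNA models and no other record, and probe set 10364239 to 2 curated mRNAs, 3 predicted ones and 7 other records. With 10364239 in its place, the null minus wild-type LSK/Flt3- difference was 0.00084, against 0.22 with 10364249. Which of them reads the carrier's main mRNA was not tested.

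**Figure D2:**
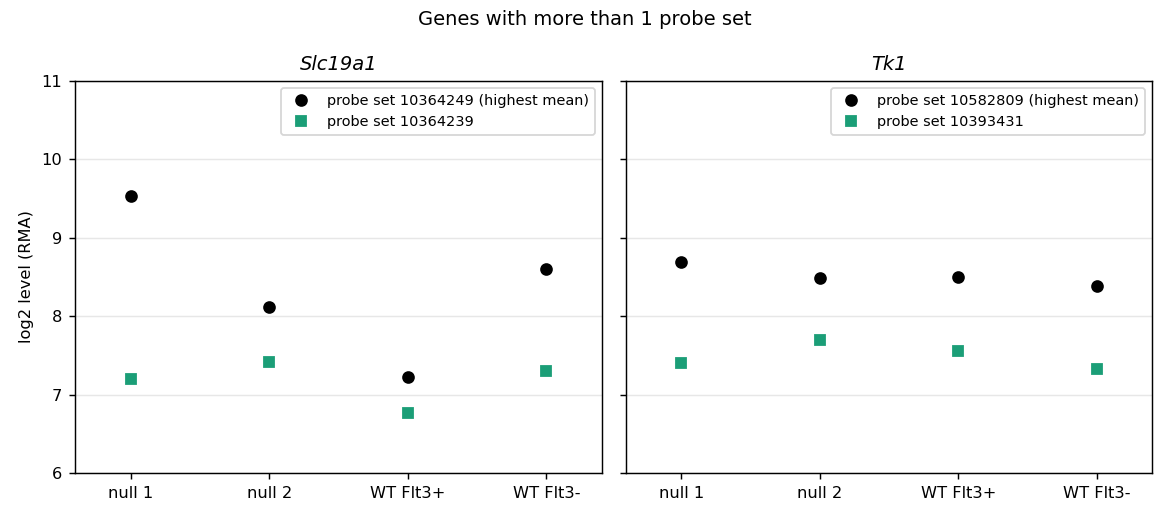
Log2 RMA levels (y axis) of both probe sets of Slc19a1 (left) and of Tk1 (right) on the 4 arrays (x axis); circles are the probe set with the higher mean and squares the other, 1 point an array. For Slc19a1 the circles run from 9.54 on null replicate 1 to 7.22 in wild-type LSK/Flt3+ cells while the squares stay between 6.77 and 7.41.

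The same null arrays were also set against wild-type LSK/Flt3+ cells, a fraction with more lymphoid potential, so that fraction and genotype both differ and cannot be told apart, and the null arrays are shared with the first comparison. Slc19a1, Mthfd2, Shmt1, Tyms and Rrm1 were higher on both null arrays (5 of 9, where 35.0% of all genes were), 0 were lower on both (25.1% of all genes) and 4 were split. Over all genes 60.2% lay on the same side on both null arrays. Slc19a1 was the member farthest apart, with a log2 difference of 1.61 ± 0.52 (SE) and differences of 2.31 and 0.90 on null replicates 1 and 2. It did not pass over all genes (limma, adjusted p = 0.742, and between 0.372 and 1 over 8 other settings), and with probe set 10364239 the difference was 0.54. It was the single member with an unadjusted p under 0.05 (0.0120), against 3.44% of all genes. None of the 9 passed the adjusted test, where 0.316% of all genes did, and none was 2-fold apart on both null arrays, where 1.34% were.

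Mthfd2 was 0.77 ± 0.36 (SE) above wild-type LSK/Flt3+ cells (95% interval -0.03 to 1.58), Shmt1 0.45 ± 0.36 (SE) and Tyms 0.44 ± 0.35 (SE), and each of these was at adjusted p = 1. The differences of Mthfd1 (0.12), Tk1 (0.08), Rrm1 (0.14), Rrm2 (0.08) and Shmt2 (-0.13) were small beside their standard errors of 0.32 to 0.51. The median over the 9 genes was 0.14, beside 0.05 for all genes and 0.013 for genes with a mean level of at least 6. It was 0.081 after quantile normalization and 0.051 after centring on array medians.

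**Figure D3:**
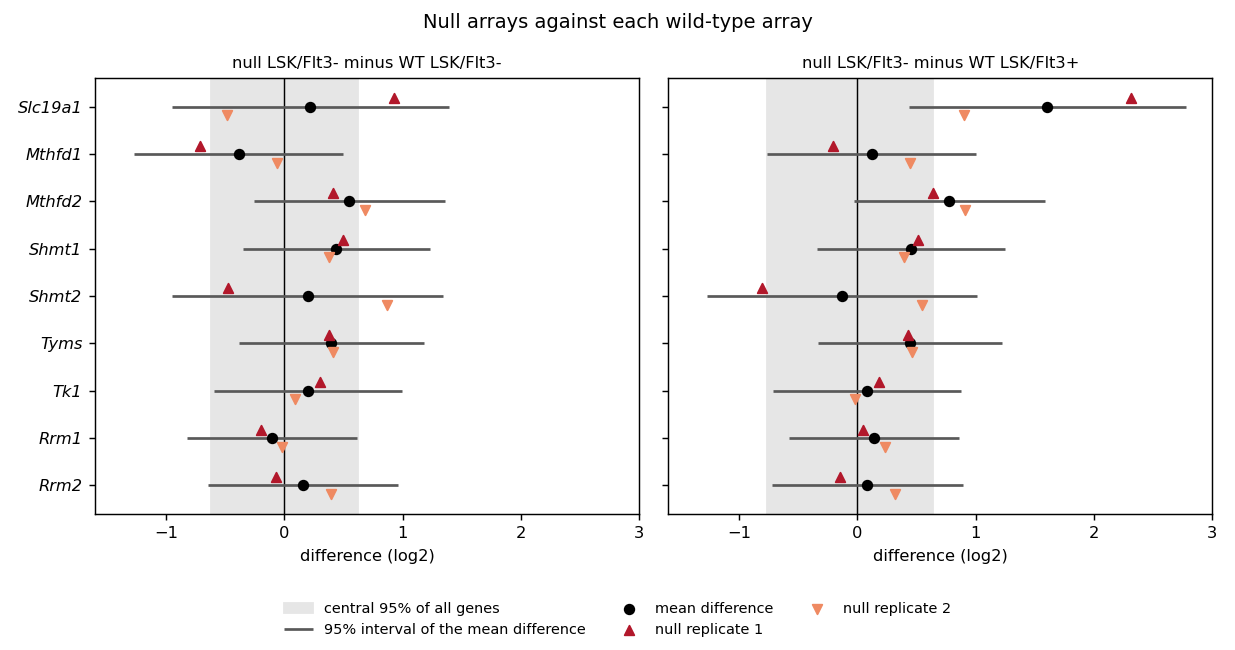
Difference of the null arrays from wild-type LSK/Flt3- cells (left) and from wild-type LSK/Flt3+ cells (right) for the 9 genes, on the log2 scale (x axis); triangles are the null replicates, black points their mean, lines the 95% limma interval and the grey band the central 95% of all 19938 genes. All 9 intervals on the left cross 0, and on the right that of Slc19a1, from 0.44 to 2.77, lies above it.

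Between the wild-type fractions, with 1 array each and set side by side without a test, Slc19a1 was the member at least 2-fold apart, 1.38 lower in LSK/Flt3+ than in LSK/Flt3- cells on probe set 10364249 and 0.54 lower on 10364239. Of all genes, 1.1% were at least 2-fold apart in either direction and 0.176% were at least 2-fold lower in LSK/Flt3+ cells. Mthfd1 was 0.51 lower in LSK/Flt3+ cells, Rrm1 0.24 lower and Mthfd2 0.23 lower, Shmt2 was 0.33 higher, and Tyms, Shmt1, Tk1 and Rrm2 differed by at most 0.12 between the fractions. In all 6 of 9 were lower in LSK/Flt3+ cells, against 43.1% of all genes, though Tyms, at -0.05, turned to 0.0085 after quantile normalization. Both probe sets of Slc19a1 give the LSK/Flt3+ array as the lowest of the 4. Macrophage markers set that array apart. All 5 were higher in LSK/Flt3+ than in LSK/Flt3- cells, 4 of them at least 2-fold, and both null arrays lay below the LSK/Flt3+ array for all 5. Adgre1, a macrophage surface receptor gene, read 4.52 and 4.13 on the null replicates, against 7.17 in Flt3+ and 4.21 in Flt3- wild-type cells (limma against Flt3+, adjusted p = 0.00563). The part of such cells in the differences of Slc19a1 and the other genes from LSK/Flt3+ cells was not tested.

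The spread of the null pair bounds what these differences can show. Slc19a1 and Shmt2 were more than 2-fold apart between null replicates 1 and 2, in opposite directions (1.41 and -1.35), where 2.82% of all genes were. Mthfd1 (-0.66) and Rrm2 (-0.47) were also lower on replicate 1, and in all 6 of 9 were, against 35.0% of all genes. So were 43 of the 68 measured genes of the wider nucleotide pathway described below, so this is not particular to the 9. The share was not counted for genes with a mean level of at least 6 alone. Red cell markers were also lower on replicate 1. All 6 measured of 8 listed erythroid markers were lower on null replicate 1 than on replicate 2. Car1, a red cell carbonic anhydrase gene, was at 6.44 and 10.92, against 11.37 in Flt3+ and 11.81 in Flt3- wild-type cells. The 6 levels summed to 9.97 and 11.63 (log2) on the null replicates, against 11.77 in Flt3+ and 12.21 in Flt3- wild-type cells. Car1 was the largest part of that sum except on null replicate 1. Against Flt3- wild-type cells, Car1 and Rhag lay below on both null arrays, Tfrc lay above and 3 of the 6 were split. Of all genes, 19.9% lay below and 41.3% above. Megakaryocyte markers (4 of 5 measured) summed to 8.93 and 10.60 on the null replicates, against 9.64 in LSK/Flt3+ and 9.51 in LSK/Flt3- wild-type cells, a gap carried by Pf4 (7.31 and 10.04) and Vwf (6.93 and 8.11), while Gp9 was at 6.07 and 6.04. Mast cell and basophil markers were lower on replicate 1 for 5 of 5, with summed levels of 9.17 and 10.24 on the null replicates, against 9.93 in Flt3+ and 8.99 in Flt3- wild-type cells, as were 5 of 5 mature neutrophil markers (7.71 and 8.09, against 7.28 in Flt3+ and 8.56 in Flt3- wild-type cells). Of the neutrophil markers, Camp differed by only -0.0075 between the null replicates. Against Flt3- wild-type cells, 4 of the 5 lay above on both null arrays and 1 below, where 41.3% and 19.9% of all genes did. The 1 below was S100a8, at 6.59 and 7.07 on the null replicates, against 6.12 in Flt3+ and 8.19 in Flt3- wild-type cells. Some other marker lists were mostly higher on replicate 1, as were 12938 of the 19938 genes. They were the LSK markers (6 of 7), early lymphoid (5 of 5), macrophage (4 of 5), T and NK cell (4 of 5) and B lineage markers (3 of 4). The part of any of these lists in the split of Shmt2, Mthfd1 and Rrm2 was not tested.

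Of the 8 granulocyte-monocyte progenitor markers, all measured, 7 lay above both wild-type arrays on both null arrays. Of all genes, 41.3% lay above the Flt3- and 35.0% above the Flt3+ array on both null arrays. The share above both wild-type arrays was not counted. Of the 8 markers, 7 were lower on null replicate 1 than on replicate 2, against 35.0% of all genes. Ms4a3 passed limma as higher than in Flt3+ and in Flt3- wild-type cells (adjusted p = 0.00931 and 0.0321). Csf1r, the receptor of macrophage growth factor, passed as lower than in Flt3+ wild-type cells (limma, adjusted p = 0.0250), and read 5.59 and 5.97 on the null replicates, against 8.11 in Flt3+ and 5.77 in Flt3- wild-type cells. The summed level of the granulocyte-monocyte list, most of it from Mpo, was 12.92 and 13.20 on the null replicates, against 12.05 in Flt3+ and 11.77 in Flt3- wild-type cells. Early lymphoid markers (5 of 5) summed to 8.27 and 7.76 on the null replicates, against 11.23 and 10.13 in those wild-type fractions. Dntt and Satb1 had the highest levels of the 5 in both wild-type fractions. Against Flt3- wild-type cells, 4 of the 5 lay below on both null arrays and 1, Ighm, above. Of all genes, 19.9% and 41.3% did. No marker had a level of 0 on any array, and RMA levels do not show which genes stood above background. The summed granulocyte-monocyte level thus stood above both wild-type arrays on both null arrays, as Mthfd2, Shmt1 and Tyms did, and its part in those differences was not tested.

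The promoters of Mthfd2, Shmt1 and Tyms are shown because these genes lay above both wild-type arrays on both null arrays, and those of Rrm1 and Rrm2 because the reductase genes did not. The share of all genes that lay above in this way was not counted, so the choice marks no result. Each is the 150 bases before the RefSeq start site (GRCm38.p6), 5′ to 3′ on the gene's strand, at chr6:83317605-83317754 (minus strand) for Mthfd2, chr11:60811266-60811415 (minus) for Shmt1, chr5:30073626-30073775 (minus) for Tyms, chr7:102441545-102441694 (plus) for Rrm1 and chr12:24708104-24708253 (plus) for Rrm2. Capitals mark matches on either strand to CCAAT, the box bound by NF-Y, and to TTCCCGC or TTGGCGC, forms of the site bound by E2F, the factor family of S phase genes.
Mthfd2: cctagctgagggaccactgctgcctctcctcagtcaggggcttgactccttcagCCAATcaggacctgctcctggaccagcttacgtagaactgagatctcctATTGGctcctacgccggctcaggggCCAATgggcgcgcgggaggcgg
Shmt1: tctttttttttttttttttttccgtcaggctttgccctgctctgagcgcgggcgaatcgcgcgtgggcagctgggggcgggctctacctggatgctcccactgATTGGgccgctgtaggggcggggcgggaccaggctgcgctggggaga
Tyms: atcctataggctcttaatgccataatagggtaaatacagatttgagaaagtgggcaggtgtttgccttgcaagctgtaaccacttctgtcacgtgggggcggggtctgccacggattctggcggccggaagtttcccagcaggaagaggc
Rrm1: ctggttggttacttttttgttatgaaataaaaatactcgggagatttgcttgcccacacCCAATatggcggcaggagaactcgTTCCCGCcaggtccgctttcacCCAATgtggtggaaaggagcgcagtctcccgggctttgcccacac
Rrm2: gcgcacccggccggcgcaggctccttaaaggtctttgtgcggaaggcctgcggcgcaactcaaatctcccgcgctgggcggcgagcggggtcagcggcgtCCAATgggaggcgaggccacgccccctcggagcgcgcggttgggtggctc

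All 9 genes matched the RefSeq promoter table, with 10 start sites, since Slc19a1 has 2. In the 250 bases before the start, CCAAT was found for 5 genes, which are Mthfd1, Mthfd2, Shmt1, Rrm1 and Rrm2, and an E2F form for 2, Mthfd1 and Rrm1. Of all 32851 windows of that length in the table, 33.8% held CCAAT and 5.62% an E2F form. Mthfd2 had 3 CCAAT matches, starting 96, 47 and 22 bases before the start site, Rrm1 had 2, at 91 and 45 bases, and Shmt1 and Rrm2 had 1 each, at 47 and 50 bases. The E2F form of Rrm1 began 67 bases and that of Mthfd1 53 bases before the start. The Tyms, Tk1, Shmt2 and Slc19a1 windows held none of these letters. Genes with CCAAT matches thus stood above (Mthfd2, Shmt1), below (Mthfd1, Rrm1) and on both sides (Rrm2) of wild-type LSK/Flt3- cells, and no relation was tested.

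The wider pathway was followed through 68 measured genes of 73 listed for folate, serine, deoxynucleotide, purine, pyrimidine and salvage reactions. None passed limma over all genes in either direction against wild-type LSK/Flt3- or LSK/Flt3+ cells. At an unadjusted p under 0.05, 1 was higher and 2 were lower against LSK/Flt3- cells, and 0 in either direction against LSK/Flt3+ cells, where 2.4% and 3.44% of all genes did so. Against LSK/Flt3- cells, 22 lay above on both null arrays and 13 below, or 32.4% and 19.1%, where all genes gave 41.3% and 19.9%, and the median difference was 0.06. No listed gene was 2-fold apart on both null arrays from LSK/Flt3- or from LSK/Flt3+ cells, as 0.632% and 1.34% of all genes were. The other 5 listed genes were not analysed here.

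In the folate cycle and transport list (14 of 17 measured), 5 genes lay above and 2 below on both null arrays, where 41.3% and 19.9% of all genes did. The largest differences from wild-type LSK/Flt3- cells were those of the proton-coupled folate transporter gene Slc46a1 (0.43), the mitochondrial formyltransferase gene Mtfmt (0.34) and Ftcd (0.31), a folate enzyme of histidine breakdown, none past the test. The serine and glycine list (7 of 7) held the gene with the smallest unadjusted p of the pathway, Gcsh, whose product carries the intermediate of the mitochondrial glycine cleavage system. Gcsh was at 6.25 and 6.23 on the null replicates 1 and 2, against 6.33 in Flt3+ and 7.21 in Flt3- wild-type cells. The LSK/Flt3- array stood apart from the other 3, and the difference of -0.98 ± 0.34 (SE) did not pass (unadjusted p = 0.0177, limma adjusted p = 1). Phgdh, the entry enzyme of serine synthesis, was at -0.17 and Dld, a subunit shared with other dehydrogenase complexes, at -0.15.

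Among the 21 of 22 measured genes of deoxynucleotide and thymidylate supply, 3 lay above and 6 below on both null arrays, where 41.3% and 19.9% of all genes did. Dctd, the deaminase that makes deoxyuridylate for thymidylate synthase, was at 7.32 and 7.74 on the null replicates 1 and 2, against 8.12 in Flt3+ and 8.49 in Flt3- wild-type cells. Both null arrays were below both wild-type arrays, and the difference from LSK/Flt3- cells was -0.96 ± 0.37 (SE; unadjusted p = 0.0282, limma adjusted p = 1). Dtymk, the next kinase after Tyms and Tk1, was at 0.36 (0.06 and 0.67 on the null replicates), and the nucleotide kinase gene Cmpk1 was at -0.35. In these samples Dctd was thus read lower and Tyms higher on both null arrays, in neither case past the test, and no relation between them was tested.

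Of the de novo purine genes (12 of 13 measured), 8 lay above and 0 below wild-type LSK/Flt3- cells on both null arrays, where 41.3% and 19.9% of all genes did. Their median difference was 0.16, beside 0.09 for all genes and 0.0046 for genes with a mean level of at least 6. Pfas, Gart and Paics, enzymes of inosinate synthesis of which GART takes its carbon from folate, were at 0.61, 0.37 and 0.31, with adjusted p = 1 for each in limma. Of the 5 pyrimidine genes, 1 lay above on both arrays and 4 were split. Umps (-0.29) and Cad (-0.27), which encode the last and the first enzymes of uridylate synthesis, were low on null replicate 1 alone, at 8.26 and 9.25 for Umps on replicates 1 and 2, against 9.17 in Flt3+ and 9.05 in Flt3- wild-type cells. Dhodh, the mitochondrial enzyme between them, was at 0.29.

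In the salvage list (9 of 9), 4 genes lay above and 3 below on both null arrays, where 41.3% and 19.9% of all genes did. Gda, guanine deaminase, was at 7.22 and 6.23 on the null replicates 1 and 2, against 5.88 in Flt3+ and 5.67 in Flt3- wild-type cells, a difference of 1.05 ± 0.43 (SE; unadjusted p = 0.0357, limma adjusted p = 1) from LSK/Flt3- cells. It was higher on both null arrays, by 1.54 and 0.56. Ada, adenosine deaminase, was at -0.43 and Aprt, adenine phosphoribosyltransferase, at 0.29.

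**Figure D4:**
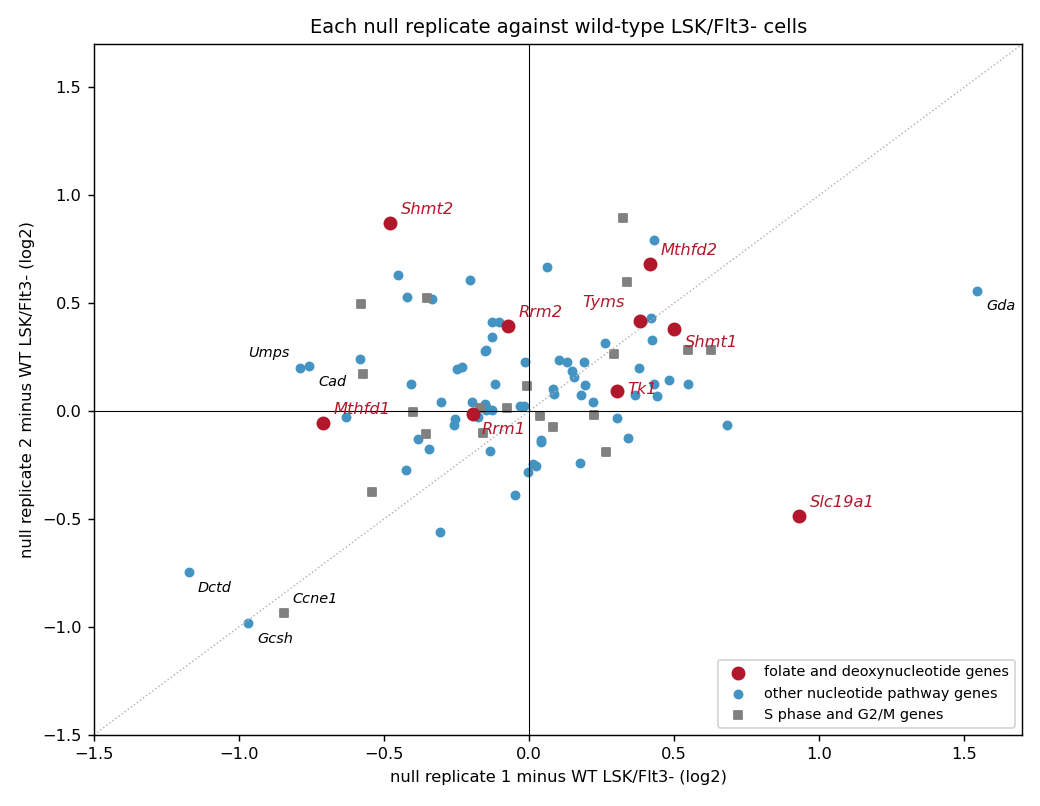
Log2 difference from wild-type LSK/Flt3- cells on null replicate 1 (x axis) and null replicate 2 (y axis); red points are the 9 genes, blue points the 68 other nucleotide pathway genes and grey squares the 20 S phase and G2/M genes, and the dotted line marks equal differences. Mthfd2, Shmt1, Tyms and Tk1 lie in the upper right, Slc19a1 and Shmt2 lie far from the line on opposite sides, and Gcsh, Dctd and Ccne1 lie in the lower left.

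Genes of S phase and of G2 and mitosis, which rise in cycling cells as Tyms, Tk1 and Rrm2 do, gave a level to read the 9 genes against. Of 13 S phase genes, 4 lay above and 4 below wild-type LSK/Flt3- cells on both null arrays, with a median difference of 0.0035. Of all genes, 41.3% and 19.9% did. Against LSK/Flt3+ cells 7 lay above and 2 below, where 35.0% and 25.1% of all genes did, with a median of 0.19, beside 0.14 for the 9 genes. Of 7 measured G2 and mitosis genes of 8 listed 1 lay above and 1 below LSK/Flt3- cells, with a median of 0.0070, and 1 above and 3 below LSK/Flt3+ cells, with a median of -0.07. None passed limma over all genes. The farthest apart were Ccne1, cyclin E1, at -0.89 ± 0.35 (SE; unadjusted p = 0.0300, limma adjusted p = 1), the licensing factor gene Cdt1 at 0.61 and Cdc6, which loads the helicase, at 0.46, then Cdk1 at 0.47 and the cyclin gene Ccna2 at -0.46, with the kinase gene Plk1 at -0.20. Whether the 9 genes differ from these lists was not tested.

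By the shape of its 4 levels, Mthfd2 was most like Vamp5, Vamp7 and Fli1 among 8417 other genes with a mean level of at least 6. After each gene was centred on its own mean, their Euclidean distances to Mthfd2 over the 4 arrays were 0.05, 0.06 and 0.06 on the log2 scale. With only 4 arrays and 8417 genes searched, close matches are readily found, and shared regulation was not tested.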

How the data were processed

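The 4 Affymetrix arrays were grouped by their sample titles. The authors deposited log2 levels, 1 per probe set, made by RMA (background correction, normalization between arrays, probe summary), and affy 1.23 is the software that the submitters' processing notes name. The genome build was not given in the sources used here.

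The platform annotation gave a single gene symbol for 21789 of 35556 probe sets, and 21698 of these matched RefSeq by Entrez number. Probe sets with several symbols or none were not tested. A gene with several probe sets was read from that of highest mean over the 4 arrays, which left 19938 genes. All arrays entered 1 fit of limma 3.58.1 (R 4.3.3) with 3 group means and a mean-dependent prior. Only the null pair measures spread (1 residual and 9.01 prior degrees of freedom), and the lone wild-type arrays are taken to vary alike. Tests were two-sided, with Benjamini-Hochberg adjustment over all genes at 0.05. The wild-type arrays were compared without a test.

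The genes described, the pathway and marker lists and the tests were chosen with earlier results of these data known. All 9 genes are named. From each pathway list the 3 genes with the largest null minus wild-type LSK/Flt3- difference are named, with any gene that differed 2-fold or more on each null array. Promoter sequences are from RefSeq (GRCm38.p6). Alternatives were quantile, median and cyclic loess scaling, a filter at a mean level of 6, the mean of a gene's probe sets, robust or trend-free spread, and leaving out each null array. A preference for probe sets matched to curated RefSeq mRNAs was added after the data were seen.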

Additional observations from a re-analysis of the deposited data

How the results depend on the processing

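None of the 9 genes passed limma over all genes against either wild-type array in any of 8 other settings with a test. After quantile, median and cyclic loess scaling, Mthfd2, Shmt1, Tyms and Tk1 lay above wild-type LSK/Flt3- cells on both null arrays. The other settings left the levels of Mthfd2, Shmt1 and Tyms unchanged, so they could not move these genes. For Tk1, the mean of its probe sets also lay above on both. Below those cells on both null arrays as deposited, Rrm1 was no longer so after centring on medians. Rrm1 was no longer above LSK/Flt3+ cells on both after quantile normalization or centring. Centring moved the median difference of all genes from LSK/Flt3- cells to -0.04, against 0.09 as deposited, and the median of the 9 genes to 0.064. After it, the differences of Tk1 and Rrm2 from LSK/Flt3+ cells turned to -0.0074 and -0.0055. The cause was not tested.

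Left with 1 null array each, the fits have no residual degrees of freedom and give values only. The median of the 9 genes was then 0.30 to 0.38 against LSK/Flt3- and 0.19 to 0.45 against LSK/Flt3+ cells. Against LSK/Flt3- cells the differences ran from -0.49 to 0.93 for Slc19a1, -0.48 to 0.87 for Shmt2 and -0.074 to 0.39 for Rrm2. Against LSK/Flt3+ cells they ran from -0.21 to 0.45 for Mthfd1, -0.81 to 0.55 for Shmt2, -0.023 to 0.19 for Tk1 and -0.15 to 0.32 for Rrm2. Genes at least 2-fold apart numbered 298 to 507 against LSK/Flt3- cells (126 on both arrays) and 444 to 801 against LSK/Flt3+ cells (267 on both), and members 0 to 1 against LSK/Flt3+ cells.

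Counts of genes passed over the whole array depended on the scaling. Against LSK/Flt3- cells 4 passed as reported (4 higher, 0 lower), 5 after cyclic loess (4 higher, 1 lower), 2 after quantile normalization (2 higher, 0 lower), 108 after centring (30 higher, 78 lower) and 25 with robust estimation (12 higher, 13 lower). Against LSK/Flt3+ cells 63 passed as reported (7 higher, 56 lower), 272 after centring (44 higher, 228 lower), 114 after cyclic loess (10 higher, 104 lower), 114 with robust estimation (15 higher, 99 lower) and 22 with a mean level of at least 6 (5 higher, 17 lower), where 150 genes were 2-fold apart on both null arrays. No paired analysis was possible because each wild-type group has 1 array, whose title carries no replicate number, so that fewer than 2 numbers are shared. RMA values without detection calls do not show which levels stood above background.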
